A study of Mus musculus with 16 samples.

Results

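The genes described here are the 9 mouse members of the BCL2 family that either hold mitochondria closed or open pores in them: the survival genes Mcl1, Bcl2l1, Bcl2, Bcl2a1a, Bcl2a1b and Bcl2a1d, and the pore-forming genes Bax, Bak1 and Bok. They were chosen by symbol and role and are 9 of the 46517 gene identifiers measured. Of the 9, 7 passed the filter on low counts and were tested among 14933 genes. Bcl2a1a and Bok did not, and their counts are given without a test.

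RNA was measured in live CD4+CD8+ thymocytes that were sorted by flow cytometry from 16 NOD mice aged 6 to 7 weeks, with 1 library for each mouse. Every mouse, the controls too, was on the NOD background and carried AI4, a transgenic T cell receptor. The groups were 5 transgenic mice (NOD-AI4-60A, labelled as Nfkbid transgenic; 3 males and 2 females), 5 mice labelled as Nfkbid knockouts (NOD-AI4-Nfkbid-/-; 4 males and 1 female) and 6 NOD-AI4 controls (3 males and 3 females). Nfkbid encodes a nuclear IκB protein that binds NF-κB subunits, and the series title sets its overexpression and ablation beside thymic deletion of AI4 cells. The promoter of the transgene and the knockout allele are not given in the sources used here.

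Several facts of the libraries bear on every comparison below. Levels are given in CPM, that is counts per 1000000 counts of a library, on library totals scaled by TMM. For Nfkbid the mean was 208.1 ± 72.1 CPM among the 5 transgenic mice, 31.6 ± 4.30 CPM among the 5 knockout-labelled mice and 32.7 ± 2.87 CPM among the 6 controls (SD). The ablation is thus not visible at the gene level, and the libraries are called knockout-labelled here. The mouse identifiers of all controls have 1 prefix and those of all other mice another, so that genotype and identifier series cannot be told apart in any comparison with the controls. Library totals were 18546570 to 35637813 estimated counts outside the controls and 17955743 to 26586220 in the controls. Cd4, Cd8a, Rag1 and Dntt, which mark double-positive thymocytes, were at 441.1 CPM or more in each library, Ly6g of granulocytes was at 0 in all 16, and Csf1r of macrophages did not exceed 2.72 CPM. In sorted bulk cells, fewer cells of a type and less RNA per cell cannot be told apart.

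BCL2-family proteins decide whether the outer membrane of the mitochondrion stays intact. Survival members such as MCL1, BCL-xL (from Bcl2l1) and BCL2 bind the pore formers BAX and BAK and the BH3-only proteins that activate them; when these guards are overcome, BAX and BAK assemble into pores, cytochrome c leaves and caspases are activated. In the thymus, double-positive cells are known for relying on BCL-xL and MCL1 and for holding little BCL2, which returns as cells mature to single-positive stages, and BIM (Bcl2l11) is known for its part in deleting self-reactive cells.

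The Bcl2a1 copies encode A1, a survival protein that activated lymphocytes make in response to NF-κB. They lie on chromosome 9 of GRCm38, Bcl2a1d at 88723285 to 88731914, Bcl2a1a at 88956900 to 88962419 and Bcl2a1b at 89199209 to 89207827. The first 60 coding bases of each copy are shown because their likeness limits what a count of a single copy can mean. Capitals mark the 6 positions at which the copies differ in this stretch, which comes from GENCODE transcripts of the GRCm38 reference strain and not from NOD mice.

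Bcl2a1a: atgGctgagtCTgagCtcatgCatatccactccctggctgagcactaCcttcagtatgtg
Bcl2a1b: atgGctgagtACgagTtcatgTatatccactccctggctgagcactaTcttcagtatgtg
Bcl2a1d: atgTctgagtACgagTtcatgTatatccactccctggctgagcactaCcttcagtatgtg

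Over the whole coding length of 516 bases the copies differed at 12 positions. Bcl2a1b and Bcl2a1d were 98.837% identical, Bcl2a1a and Bcl2a1d 98.643%, and Bcl2a1a and Bcl2a1b 97.868%. Of 442 windows of 75 bases, 167 in Bcl2a1a, 265 in Bcl2a1b and 141 in Bcl2a1d occurred in no other copy, so that most such stretches of Bcl2a1a and Bcl2a1d cannot be given to 1 copy. Values of single copies are therefore uncertain, and the sum of the copies is given beside them.

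Per transcript length, on the deposited TPM scale (transcripts per 1000000 transcripts), Mcl1 was the most abundant member in each of the 16 libraries, at 172.0 to 254.6 TPM. Bak1 (74.8 to 105.9 TPM) and Bcl2l1 (58.3 to 104.3 TPM) followed with overlapping ranges, and Bax (52.3 to 68.9 TPM) overlapped with the lowest Bcl2l1 libraries. Bcl2 stood apart from its neighbours in this order, at 9.72 to 17.3 TPM. Bcl2a1d (0.620 to 2.73 TPM), Bcl2a1b (0.103 to 2.16 TPM), Bcl2a1a (up to 0.779 TPM) and Bok (up to 0.249 TPM) were the scarcest and each overlapped with the next. Of the summed TPM of the 6 survival genes, Mcl1 made up 66.0% to 72.0% in transgenic, 60.7% to 70.2% in knockout-labelled and 63.6% to 76.4% in control libraries. These are shares of RNA among the chosen genes and do not measure protein.

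**Figure D1:**
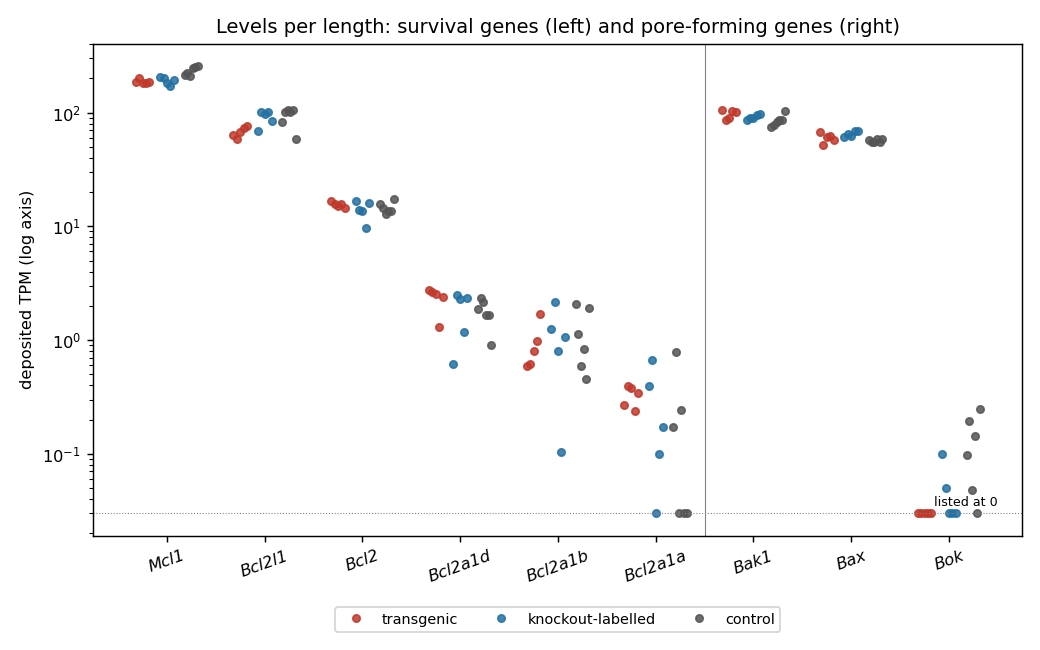
Deposited TPM (log axis) of the 9 members in each library, survival genes left of the vertical line and pore-forming genes right of it. Each point is 1 library, coloured by group, and values at 0 or rounded to 0 sit on the dotted line. Mcl1 lies above all other members, at 172.0 to 254.6 TPM, and Bcl2 lies between the abundant members and the Bcl2a1 copies, at 9.72 to 17.3 TPM.

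Of the 7 members tested, 4 were called in transgenic against control libraries, against 38.6% of all genes tested (23.0% higher and 15.6% lower). Bak1 and Bax were higher and Mcl1 and Bcl2l1 lower. In knockout-labelled against control libraries 3 of 7 were called, against 26.4% of all genes (16.4% higher and 10.0% lower): Bak1 and Bax were higher and Mcl1 lower. With so many genes called, these counts of members are not far from the background, and the comparisons share their controls. The median log2 fold change of the 7 was 0.19 in transgenic and 0.00 in knockout-labelled libraries, against 0.03 and 0.02 over all genes. A gene is called here at an adjusted p under 0.05 in edgeR's quasi-likelihood test, Benjamini-Hochberg adjusted over all genes, with group and sex in the model, and an adjusted p below is from that test unless another tool or setting is named beside it.

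Transcripts of other cells and states differed between the groups as well, and their part in the values of the members was not tested. Of 10 class II antigen presentation genes, 9 rose in transgenic and 7 in knockout-labelled libraries, with summed levels of 88.3 to 139.9 CPM in transgenic, 29.96 to 121.2 CPM in knockout-labelled and 31.7 to 53.7 CPM in control libraries. Of 8 tested B cell markers, 6 rose in transgenic and 2 fell in knockout-labelled libraries (13.1 to 43.8, 8.60 to 18.1 and 7.04 to 14.5 summed CPM in transgenic, knockout-labelled and control libraries). Of 8 tested macrophage and monocyte markers, 6 rose and 1 fell in transgenic and 1 fell in knockout-labelled libraries (19.99 to 24.7, 10.4 to 17.7 and 11.9 to 19.7 summed CPM in the same groups). Of 8 tested dendritic cell markers, 5 rose in transgenic libraries, and 1, Ccr9, which thymocytes express as well, fell in knockout-labelled ones (1620 to 2037, 1414 to 1814 and 1847 to 2080 summed CPM in the same groups). The median log2 fold change of these 8 was 1.32 in transgenic and 0.79 in knockout-labelled libraries. Their median sums, at 1816 and 1688 CPM, nevertheless lay below the 1945 CPM of controls. The sums include Ccr9 and are therefore no measure of dendritic cells. Of 8 tested markers of double-negative thymocytes, the stage before CD4 and CD8 appear, 3 rose in transgenic and 3 in knockout-labelled libraries (131.7 to 208.8, 140.3 to 189.6 and 120.4 to 178.2 summed CPM). None of the 10 granulocyte markers passed the filter on low counts. Of 11 tested genes of the type I interferon response, 5 rose in transgenic libraries, where their sum was 391.996 to 1488 CPM, against 215.4 to 294.1 CPM in knockout-labelled and 204.2 to 765.1 CPM in control libraries.

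**Figure D2:**
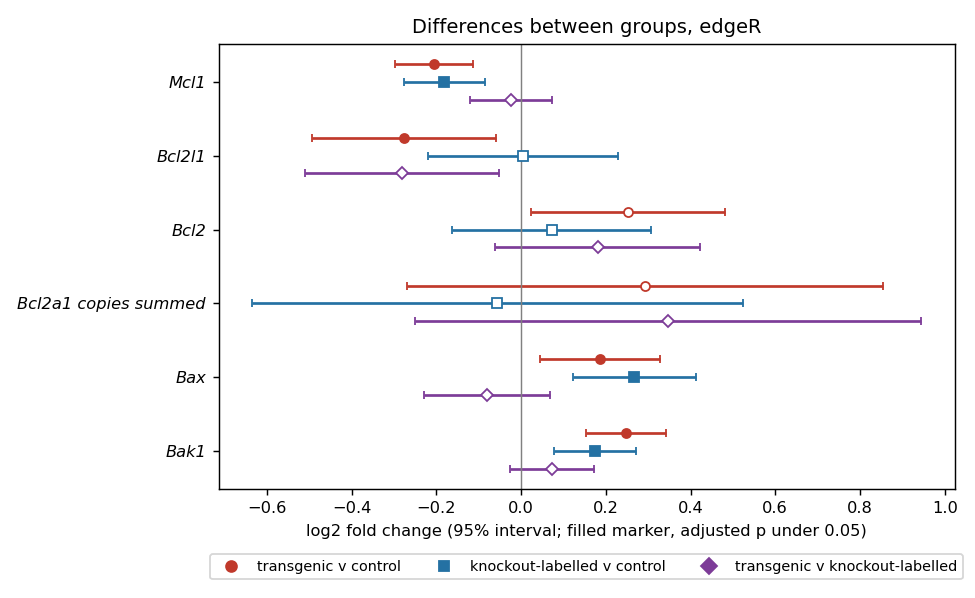
Log2 fold changes of 5 members and of the summed Bcl2a1 copies in 3 comparisons, with 95% intervals that are not adjusted for the number of genes; filled markers were called. Mcl1 lies left of 0 and Bax and Bak1 right of it in both comparisons with controls, and no marker of transgenic against knockout-labelled libraries is filled.

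Mcl1 (ENSMUSG00000038612, GRCm38 chromosome 3, 95658788 to 95663176, plus strand), whose short-lived protein neutralises BAK and BIM, was lower in both groups of mice than in controls. Transgenic libraries 1 to 5 had 414.1, 447.1, 395.7, 385.4 and 392.2 CPM, and knockout-labelled libraries 1 to 5 had 453.2, 411.6, 369.0, 380.2 and 402.9 CPM. The 6 controls lay between 430.4 and 548.3 CPM with a median of 469.5. One transgenic and 1 knockout-labelled library, both from females, reached into the control range, and the other 8 lay below it. Mcl1 fell by 0.21 on the log2 scale in transgenic libraries (SE 0.044, adjusted p = 0.00168) and by 0.18 in knockout-labelled ones (SE 0.045, adjusted p = 0.00768), which leaves 0.867 and 0.882 of the control level. The drop in transgenic libraries was called under every alternative tried. Without knockout replicates 1 to 3 and control replicate 1, a set that earlier work chose by class II transcripts, the knockout-labelled value was -0.19 with an adjusted p of 0.121. The summed class II level was 108.4 to 121.2 CPM in these knockout-labelled libraries, against 29.96 and 46.4 CPM in the other two, and 53.7 CPM in control 1, against 31.7 to 50.3 CPM in the other controls; the transgenic libraries, all higher than control 1, were kept.

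Mcl1 was also the member with the smallest p between the sexes, although it was not called. Transgenic males had 385.4 to 395.7 CPM and transgenic females 414.1 and 447.1. Knockout-labelled males had 369.0 to 411.6 CPM and the single female 453.2. Control males had 430.4 to 446.0 CPM and control females 492.9 to 548.3, so that within each group the sexes did not overlap in CPM. In the deposited TPM they did overlap among transgenic mice. Transgenic replicate 1, a female, had 184.1 TPM and transgenic replicate 5, a male, had 184.7 TPM. The log2 difference, male over female, was -0.19 (SE 0.038, adjusted p = 0.0657), and DESeq2 in place of edgeR gave -0.19 with an adjusted p of 0.000297. In the controls the females also have lower library totals than the males, and sex and depth cannot be told apart there. In males alone the group differences in Mcl1 were -0.20 (adjusted p = 0.0224) for transgenic and -0.18 (adjusted p = 0.0295) for knockout-labelled against control libraries.

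**Figure D3:**
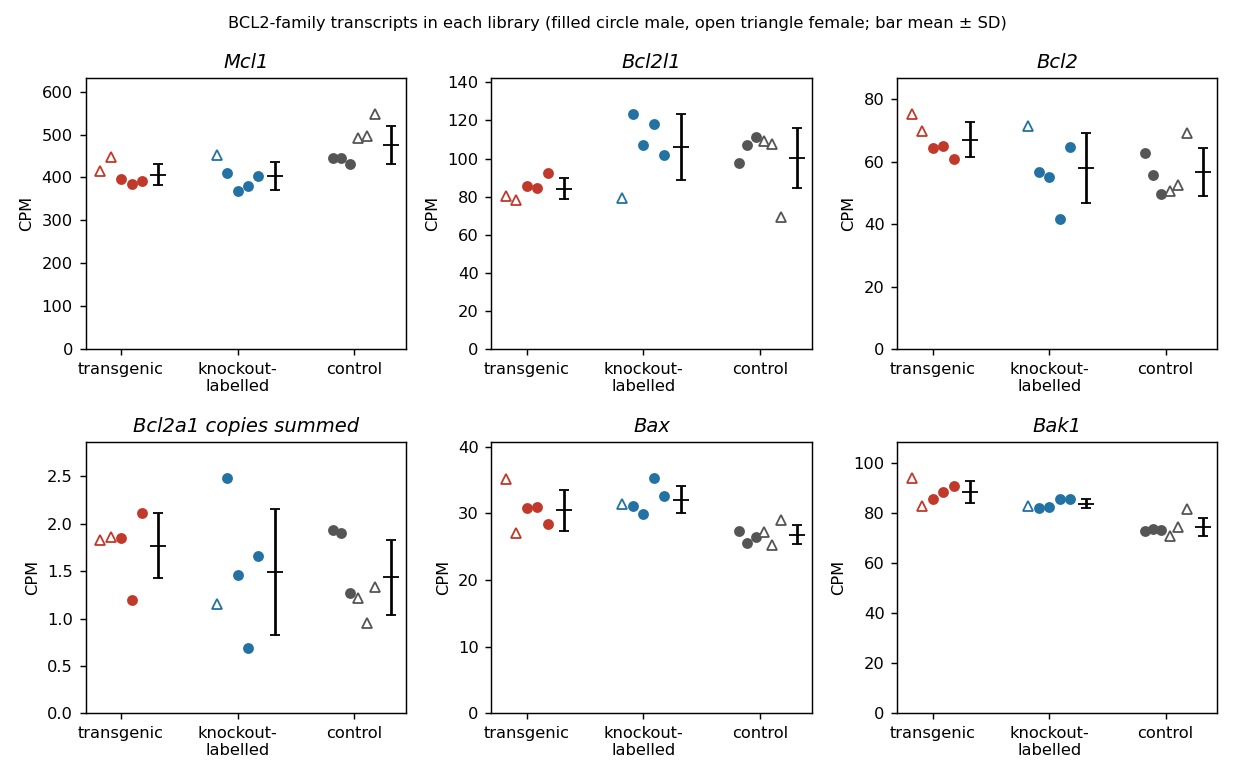
CPM of 5 members and of the summed Bcl2a1 copies in each library, with filled circles for males, open triangles for females and the mean ± SD of each group beside the points; the axes start at 0. The mean of Mcl1 is highest in controls, and within each group all females lie above all males; for Bak1 each transgenic (82.8 to 94.2 CPM) and knockout-labelled (82.2 to 85.9 CPM) library lies above each control (71.0 to 81.7 CPM).

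Bcl2l1 (ENSMUSG00000007659, chromosome 2, 152780668 to 152831728, minus strand) encodes BCL-xL, the survival protein most tied to the double-positive stage. Transgenic libraries 1 to 5 had 80.4, 78.1, 85.6, 84.4 and 92.3 CPM, and knockout-labelled libraries 1 to 5 had 79.3, 123.5, 107.1, 118.2 and 101.8 CPM. The controls ran from 69.6 to 111.3 CPM with a median of 107.3. All 5 transgenic libraries lay below 5 of the 6 controls, while control replicate 6, at 69.6 CPM, was below every other library, and knockout replicate 1 fell inside the transgenic range. Bcl2l1 fell by 0.28 on the log2 scale in transgenic against control libraries (SE 0.102, adjusted p = 0.0429). Against the knockout-labelled libraries, the only comparison within 1 identifier series, the value was -0.28 (95% interval -0.51 to -0.05, adjusted p = 0.349, not called). Knockout-labelled and control libraries differed by 0.00 (95% interval -0.22 to 0.23, adjusted p = 0.982).

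The transgenic call of Bcl2l1 is a narrow one. It was lost without control replicates 3, 4 or 5 or transgenic replicates 1, 3 or 4 (log2 fold changes of -0.22 to -0.30), and without control replicate 6 the value was -0.38 (adjusted p = 0.00253). Among males alone, which leaves out the low control 6 and knockout 1, both females, the values were -0.29 against controls (adjusted p = 0.0265) and -0.39 against knockout-labelled libraries (adjusted p = 0.0475).

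The transcripts most like Bcl2l1 across libraries included a pair of double-positive markers. Likeness was measured as the root mean square difference in log2 CPM over the 16 libraries, each gene centred on its own mean. Of the genes tested with a mean of at least 1 CPM, the most alike was Arpp21, at 0.09, against a spread of Bcl2l1 itself of 0.24. Dntt, the terminal transferase that adds bases to receptor genes, and Arrdc3 followed, each at 0.11. Arpp21 and Dntt are also on the list of double-positive markers. The summed CPM of those 10 markers was 5501 to 6133 in transgenic, 5683 to 7251 in knockout-labelled and 5470 to 8265 in control libraries, with control replicate 6 and knockout replicate 1 the lowest of their groups, as for Bcl2l1. The list as a whole did not follow Bcl2l1 in knockout-labelled against control libraries, where its median log2 fold change was -0.21, against 0.00 for Bcl2l1. Their part in the Bcl2l1 difference was not tested.

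**Figure D4:**
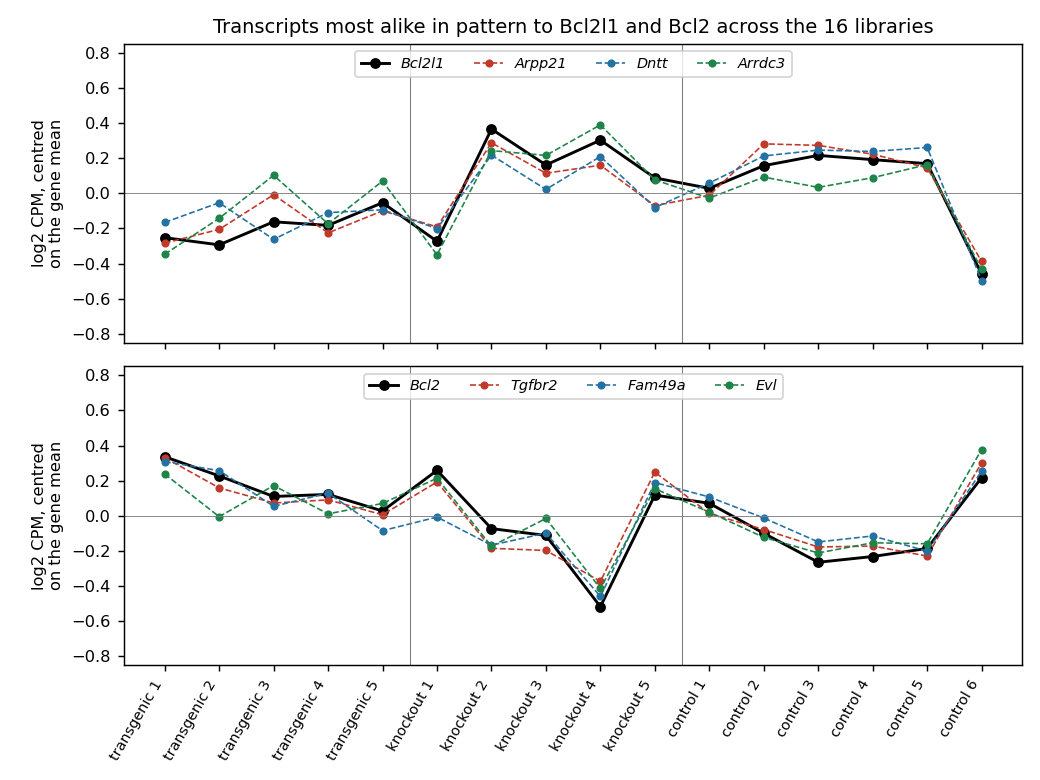
Log2 CPM centred on each gene's mean for Bcl2l1 with its 3 most similar transcripts (above) and for Bcl2 with its 3 (below), over the 16 libraries; lines only join the points of a gene. Control replicate 6 and knockout replicate 1 are low for Bcl2l1, Arpp21, Dntt and Arrdc3, and knockout replicate 4 is low for Bcl2, Tgfbr2, Fam49a and Evl.

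RefSeq lists 3 start sites for Bcl2l1, and the 250 bases before each (GRCm38.p6, minus strand) were searched on both strands for the κB consensus, to which NF-κB dimers bind. The window of start site 2 (chr2:152830718-152830967) held a match and is shown because NF-κB genes are among those described below. Capitals mark the match.

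Bcl2l1 start site 2: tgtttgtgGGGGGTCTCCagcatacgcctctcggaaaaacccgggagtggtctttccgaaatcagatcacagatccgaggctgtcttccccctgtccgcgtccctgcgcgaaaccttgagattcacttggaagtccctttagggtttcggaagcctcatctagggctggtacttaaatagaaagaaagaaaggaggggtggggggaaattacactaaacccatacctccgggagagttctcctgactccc

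The match began 242 bases upstream of start site 2, on the strand of the gene. Over all 32851 promoter windows of that length, 3.899% held the κB consensus. That share is for a single window, while 3 were searched for Bcl2l1 and 1 for each of the other 8 members. The windows of the other 8 members held none. A match describes letters only.

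Bcl2 (ENSMUSG00000057329, chromosome 1, 106538178 to 106714274, minus strand), the family's founding survival gene, was not called in any comparison. Transgenic libraries 1 to 5 had 75.4, 69.9, 64.4, 64.9 and 60.8 CPM, and knockout-labelled libraries 1 to 5 had 71.4, 56.7, 55.2, 41.7 and 64.8 CPM. The controls ran from 49.7 to 69.4 CPM with a median of 54.1. In CPM the transgenic libraries lay in the upper part of the control range or above it, and knockout replicate 4 was the lowest of all. In the deposited TPM the transgenic libraries, at 14.3 to 16.7, lay inside the control range of 12.8 to 17.3. The log2 fold change was 0.25 in transgenic against control libraries (95% interval 0.02 to 0.48, adjusted p = 0.0758), 0.07 in knockout-labelled against control libraries (95% interval -0.16 to 0.31, adjusted p = 0.663) and 0.18 in transgenic against knockout-labelled libraries (95% interval -0.06 to 0.42, adjusted p = 0.725). In transgenic against control libraries a call was gained without control replicate 1 (0.29, adjusted p = 0.0431) or knockout replicate 4 (0.22, adjusted p = 0.0436) and with a replicate block (0.27, adjusted p = 0.0211). Its most similar transcripts were Tgfbr2 (0.08), a receptor for TGF-β, Fam49a (0.09) and Evl (0.10), against a spread of Bcl2 of 0.22.

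The balance between the survival genes Bcl2l1 and Bcl2 differed widely between libraries. The ratio of Bcl2l1 to Bcl2 in TPM was 3.73 to 5.32 in transgenic, 4.11 to 10.3 in knockout-labelled and 3.41 to 8.11 in control libraries. Control replicate 6, at 3.41, had the lowest ratio of all and knockout replicate 4, at 10.3, the highest. As a description, the 10 markers of mature single-positive thymocytes summed to 903.0 to 1435 CPM in transgenic, 614.9 to 761.7 CPM in knockout-labelled and 502.1 to 778.7 CPM in control libraries, with control replicate 6 and knockout replicate 1 the highest of their groups. Their part in these ratios was not tested.

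The summed Bcl2a1 copies averaged 1.77 CPM in transgenic, 1.49 CPM in knockout-labelled and 1.44 CPM in control libraries. Single libraries ran from 1.20 to 2.11, from 0.690 to 2.48 and from 0.951 to 1.93 CPM, so that the groups overlapped throughout. The log2 fold change of the sum was 0.29 in transgenic against control (95% interval -0.27 to 0.85, adjusted p = 0.409), -0.06 in knockout-labelled against control (95% interval -0.64 to 0.52, adjusted p = 0.904) and 0.35 in transgenic against knockout-labelled libraries (95% interval -0.25 to 0.94, adjusted p = 0.842). The sums rest on 17.8 to 58.3 estimated counts in a library.

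Among single copies, Bcl2a1d had 0.637 to 1.41 CPM in transgenic, 0.315 to 1.18 CPM in knockout-labelled and 0.449 to 1.08 CPM in control libraries. Bcl2a1b had 0.286 to 0.784 CPM in transgenic, 0.0494 to 0.963 CPM in knockout-labelled and 0.195 to 0.923 CPM in control libraries. Neither copy was called anywhere. Bcl2a1a, which failed the filter, had estimated counts of 2.07 to 4.91 in transgenic libraries, 0 to 7.02 in knockout-labelled and 0 to 9.13 in control libraries. In 3 controls and 1 knockout-labelled library its estimated count was 0 or so small that it was taken as 0.

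Bak1 (ENSMUSG00000057789, chromosome 17, 27019810 to 27029009, minus strand), which encodes the pore former BAK resident in the mitochondrial outer membrane, was higher in both groups than in controls. Transgenic libraries 1 to 5 had 94.2, 82.8, 85.8, 88.4 and 91.0 CPM, and knockout-labelled libraries 1 to 5 had 83.1, 82.2, 82.4, 85.8 and 85.9 CPM. The controls ran from 71.0 to 81.7 CPM with a median of 73.6. In CPM neither group overlapped with the controls, and transgenic and knockout-labelled libraries overlapped with each other. In the deposited TPM both groups overlapped with the controls. The TPM ranges were 86.3 to 105.9 in transgenic, 86.4 to 97.9 in knockout-labelled and 74.8 to 102.2 in control libraries. Bak1 rose 1.19-fold in transgenic (log2 fold change 0.25, SE 0.045, adjusted p = 0.000487) and 1.13-fold in knockout-labelled libraries (log2 fold change 0.17, SE 0.046, adjusted p = 0.0103). The transgenic call held under every alternative tried. In knockout-labelled libraries the call was lost without the class II set named above (0.21, adjusted p = 0.0972) and without the libraries in which earlier work found high interferon-response transcripts, transgenic 3 and 5 and control 2 (0.15, adjusted p = 0.0652).

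Bax (ENSMUSG00000003873, chromosome 7, 45461697 to 45466898, minus strand) encodes the pore former that moves from the cytosol to mitochondria. Transgenic libraries 1 to 5 had 35.1, 27.1, 30.8, 30.9 and 28.4 CPM, and knockout-labelled libraries 1 to 5 had 31.4, 31.2, 29.8, 35.3 and 32.7 CPM. The controls ran from 25.2 to 29.0 CPM with a median of 26.8. Transgenic replicates 2 and 5 lay inside the control range, while all knockout-labelled libraries lay above all controls. Bax rose 1.14-fold in transgenic libraries (log2 fold change 0.19, SE 0.067, adjusted p = 0.0374) and 1.20-fold in knockout-labelled ones (log2 fold change 0.27, SE 0.069, adjusted p = 0.00953). The transgenic call was lost when any of 14 of the 16 libraries was left out, all except knockout replicate 1 and transgenic replicate 2, with log2 fold changes of 0.12 to 0.19 there, and with DESeq2 (0.15, adjusted p = 0.0848). The knockout-labelled call was lost without the interferon-high libraries (0.23, adjusted p = 0.0683).

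Bok (ENSMUSG00000026278, chromosome 1, 93685660 to 93695764, plus strand), a relative of BAX and BAK, had few counts. It had no count in any transgenic library, 1 count in each of 2 knockout-labelled libraries, and counts of 1, 2, 1, 1, 0 and 4 in controls 1 to 6. A count of 0 allows up to 0.116 to 0.162 CPM in the transgenic libraries, here on unscaled totals. This limit of 3 counts covers counting error only. The counts came to 0 over the 5 transgenic, 2 over the 5 knockout-labelled and 9 over the 6 control libraries, 4 of the 9 in control replicate 6, and were not tested.

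Setting transcripts of survival genes against those of pore formers, the summed TPM of the 6 survival genes was 1.55 to 2.00 times that of the 3 pore formers in transgenic, 1.73 to 2.07 times in knockout-labelled and 2.08 to 2.62 times in control libraries. This ratio is a description of RNA, without a test, and does not measure protein. Bak1 exceeded Bcl2l1 in TPM in 5 of 5 transgenic, 2 of 5 knockout-labelled and 1 of 6 control libraries.

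No member was called in transgenic against knockout-labelled libraries, where 1.17% of all genes were called (1.07% higher and 0.0938% lower). By edgeR 1 of the 7 members, Bcl2l1, had an unadjusted p under 0.05, and DESeq2 and limma-voom called 0. The 95% intervals of this comparison were -0.12 to 0.07 for Mcl1, -0.03 to 0.17 for Bak1 and -0.23 to 0.07 for Bax. Between males and females 0 members were called by edgeR against 0.141% of genes (0.0603% higher and 0.0804% lower in males), 2 (Mcl1 and Bcl2l1) had an unadjusted p under 0.05, DESeq2 called 1 (Mcl1) and limma-voom 0. The transgenic effect did not differ by a called amount between males and females for any of the 6 members in that fit (0.0278% of 14385 genes called, 0 members at an unadjusted p under 0.05, and 0 by DESeq2 or limma-voom). Nfkbid itself was at 309.6 and 239.0 CPM in transgenic females and at 114.7 to 194.5 CPM in transgenic males. Sex and Nfkbid level therefore cannot be told apart among the transgenic libraries.

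Among the BH3-only genes, whose proteins set BAX and BAK in motion, calls went in both directions. Of 7 tested, 2 rose and 1 fell in transgenic libraries, and 2 rose and 1 fell in knockout-labelled ones. The 38.6% and 26.4% of all genes called in these comparisons are the background for this and the following lists. Bid, whose protein links death receptors to mitochondria, rose in transgenic (log2 fold change 0.47, SE 0.10, adjusted p = 0.00124) and in knockout-labelled libraries (0.42, SE 0.10, adjusted p = 0.00586). Bad, a partner of BCL-xL, rose by 0.18 in transgenic (adjusted p = 0.0253) and by 0.26 in knockout-labelled libraries (adjusted p = 0.00701). Bcl2l11, which encodes BIM, fell by 0.40 in transgenic libraries (SE 0.08, adjusted p = 0.00103) and had a value of -0.22 in knockout-labelled ones (adjusted p = 0.0584). Bmf, chosen after its values were seen because it is the 1 that fell in knockout-labelled libraries, had values of -0.33 (adjusted p = 0.062) in transgenic and -0.41 (adjusted p = 0.0412) in knockout-labelled libraries.

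Downstream of the pore, 6 of 14 apoptosome and caspase genes rose and 3 fell in transgenic libraries, and 5 rose and 2 fell in knockout-labelled ones. Birc5, which encodes survivin and serves cell division as well, rose by 0.76 in transgenic (SE 0.12, adjusted p = 0.000329) and by 0.67 in knockout-labelled libraries (SE 0.13, adjusted p = 0.00204). Birc2, an inhibitor of apoptosis gene of the NF-κB pathway, fell by 0.22 in transgenic (adjusted p = 0.0116) and by 0.31 in knockout-labelled libraries (adjusted p = 0.00271). Of 12 genes for mitochondrial partners, 5 rose in transgenic and 4 in knockout-labelled libraries. Among them were the outer-membrane channel genes Vdac3, Vdac1 and Vdac2, with log2 fold changes of 0.33, 0.29 and 0.23 in transgenic and 0.33, 0.28 and 0.25 in knockout-labelled libraries. Beside these gains, 11 of 12 proliferation genes rose in each group, with summed levels of 3893 to 5300 CPM in transgenic, 3561 to 5368 CPM in knockout-labelled and 2472 to 3739 CPM in control libraries; their part in them was not tested.

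Among genes that act on the stability of MCL1 protein, Gsk3b, a kinase that marks MCL1 for destruction, fell by 0.29 in transgenic (SE 0.04, adjusted p = 0.000144) and 0.19 in knockout-labelled libraries (SE 0.05, adjusted p = 0.00673). Huwe1, a ubiquitin ligase for MCL1, fell by 0.17 in transgenic libraries (adjusted p = 0.00946) and had a value of -0.12 in knockout-labelled ones (adjusted p = 0.0636). The other 7 of the 9 tested were not called in either group.

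Regulators of survival at the double-positive stage were lower where they were called. Of 12 tested, 4 fell in transgenic libraries and 1 fell in knockout-labelled ones. Bcl11b, Myb and Lef1, transcription factors of early T cells, fell in transgenic libraries by 0.23, 0.42 and 0.20 (adjusted p = 0.00205, 0.00253 and 0.0155). Double-positive markers, a list that overlaps with that of the regulators, fell in 8 of 10 cases in transgenic and 3 of 10 in knockout-labelled libraries, and mature single-positive markers rose in 8 of 10 and 1 of 10. The mature list shares Il7r with the IL-7 axis and Ccr7 with the positive-selection genes below. Il7r was the 1 that rose in knockout-labelled libraries.

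The IL-7 axis sustains Bcl2 in resting T cells. Of 12 genes, 4 rose and 1 fell in transgenic libraries, and 1 rose, Il7r (1.70, SE 0.58, adjusted p = 0.0455), in knockout-labelled ones. In transgenic libraries Pim2, a survival kinase, rose by 0.55 (SE 0.08, adjusted p = 0.000146), and it also rose by 0.40 against knockout-labelled libraries (SE 0.09, adjusted p = 0.0307). Socs3, a feedback inhibitor of cytokine signals, had a value of 0.88 in transgenic (adjusted p = 0.000319) and of 0.40 in knockout-labelled libraries (adjusted p = 0.0656).

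Of 12 positive-selection genes, 3 rose in transgenic libraries, Ccr7 (0.90, adjusted p = 0.00422), Gata3 (0.15, adjusted p = 0.0326) and Id3 (0.25, adjusted p = 0.0346), and edgeR called 0 in knockout-labelled libraries, with 1 at an unadjusted p under 0.05. The other multidomain relatives had 3 tested genes of 7, Bcl2l2, Bcl2l12 and Bcl2l13, and edgeR called 0 in either group, with 0 at an unadjusted p under 0.05.

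In the NF-κB and IκB family, to which the targeted gene belongs, 3 of 12 rose and 3 fell in transgenic, and 1 rose and 4 fell in knockout-labelled libraries. Nfkbid itself, the gene of the transgene, was among the 3 that rose in transgenic libraries. Tnfaip3, the feedback inhibitor A20, fell by 0.47 in transgenic (SE 0.07, adjusted p = 0.000184) and 0.39 in knockout-labelled libraries (SE 0.08, adjusted p = 0.00199). Nfkbib, which encodes the inhibitor IκBβ, rose by 0.34 in transgenic (adjusted p = 0.000338) and by 0.23 in knockout-labelled libraries (adjusted p = 0.0103). Bcl3, another nuclear IκB gene and no member of the BCL2 family despite its name, was higher by 3.29 in transgenic than in knockout-labelled libraries (SE 0.42, adjusted p = 0.000483). That value alone does not tell a rise in transgenic from a fall in knockout-labelled libraries. By edgeR, Bcl3 also had an unadjusted p under 0.05 in each comparison with controls. Between transgenic and knockout-labelled libraries, Nfkbid, Bcl3 and Pim2 were the 3 genes called among the 93 tested in 9 lists of related pathways. Of all genes tested, 1.17% were called in this comparison, and Nfkbid is the gene of the transgene itself. Of the 93, 10 had an unadjusted p under 0.05 by edgeR.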

How the data were processed

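For 46517 gene identifiers and 16 libraries the authors deposited estimated counts (expected counts) beside TPM values. Per the submitters' processing notes, the tools were Bowtie 1.0.0, SAMtools 0.1.18 and edgeR 3.24.3 and the build GRCm38 (mm10); the labels' protocols name stranded KAPA libraries. Counting was done by a program not given in the sources used here. Among deposited estimated counts that exceed 0, 58.7% were whole within 1e-06. The deposited TPM values, used without a test, sum to 1000000 in each library. Symbols were taken from GENCODE for GRCm38, which named 46005 identifiers; the other 512 held 0.171% of the counts.

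Estimated counts were rounded, filtered by group with edgeR 4.0.16 (R 4.3.3) at its minimum count of 10, scaled by TMM and fitted by robust quasi-likelihood with terms for group and sex to the 16 libraries, leaving 12 residual degrees of freedom (7 in the fit for the sex difference of the transgenic effect, on control and transgenic libraries). Tests were two-sided, with Benjamini-Hochberg adjustment over all genes and a threshold of 0.05, and were tested on simulated data. The standard error is the log2 fold change divided by the square root of F, and 95% intervals use the t distribution. CPM were computed on TMM-scaled totals. The Bcl2a1 copies, with Bcl2a1c, were also collapsed to 1 row and refitted. Likeness used log2(CPM + 0.1). Mice were taken as separate by their identifiers; chi-square per degree of freedom between libraries of a group was 4.55 to 79.7, so none was a copy of another.

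Named genes are all members, Nfkbid, the 2 genes of each other list with the smallest p in each group comparison, and the 3 transcripts most like each tested member. Some genes that this rule names, and another motif searched, are not reported here. The members and lists were chosen with earlier results of these data known. Alternatives were DESeq2 1.42.0, limma-voom (limma 3.58.1), scaling by RLE or by totals alone, no low-count filter or one of 1 CPM in at least 5 libraries, leaving out the sex term, fits of the compared groups or of males only, a block for replicate numbers, and the data without single libraries or without sets chosen in earlier work by class II or interferon-response transcripts. Intervals of counts cover counting error only.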

Additional observations from a re-analysis of the deposited data

Results flagged for a closer look

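A library was noted where its distance to the nearest other library of its group, over the range of the group, passed Dixon's 95% value. In 29 groups of 5 or 6 libraries 4 did, where chance gives about 1 in 20. All 4 are control libraries. For Bcl2l1, control replicate 6 was low at 69.6 CPM, against 97.7 to 111.3 CPM in the other controls. The same library was high for Bak1, at 81.7 CPM against 71.0 to 74.4 CPM, and for Bok, at 0.221 CPM against 0 to 0.0740 CPM, which are 4 counts. For Bcl2a1a, control replicate 2 was high at 0.338 CPM, against 0 to 0.104 CPM in the other controls.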

How the results depend on the processing

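The counts and log2 fold changes below name what an alternative moved; the cause was not tested in any of them. Mcl1 and Bak1 in transgenic against control libraries kept their direction and their call under all alternatives, leave-one-out included. In knockout-labelled against control libraries 3 members and 3942 genes were called. Without the class II set (control replicate 1 and knockout replicates 1 to 3, as chosen in earlier work; the transgenic libraries stay in) these were 1 member and 1438 genes, and without the interferon high libraries (control replicate 2, transgenic replicates 3 and 5) 1 member and 2289 genes. In transgenic against control libraries the 4 members became 2 with limma-voom and without either set of libraries, and 2 to 4 when single libraries were left out; the 5765 genes became 3160 in males only. In transgenic against knockout-labelled libraries the 174 genes became 342 with DESeq2, 278 with no filter and 106 in males only, where 1 member (Bcl2l1) was called; 160 of the 174 were higher and 14 lower, against 277 and 65 with DESeq2. Between the sexes DESeq2 called 1 member and 110 genes, against 0 and 21; 11 genes were called without the class II set and 17 to 50 with single libraries left out. For the sex difference of the transgenic effect, 4 genes became 145 with DESeq2, 15 with no filter, 2 without the class II set and 0 without the interferon high libraries, and 0 to 300 with single libraries left out, 300 of them without transgenic replicate 1.

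The replicate numbers were not taken to pair the mice. Deviations of same-numbered libraries from their group means correlated at -0.199 to 0.423, and 6 of 15 pairs were over 0.1. The highest value was that of transgenic 1 and knockout 1, both females. Only 2 of 15 libraries were best correlated with their own number. Sex was not removed from these deviations, so that they cannot exclude a pairing. With the replicate block, 5 members were called in transgenic against control libraries, Bcl2 (0.27, edgeR adjusted p = 0.0211) being added, and 12 genes between the sexes.

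The Bcl2l1 call in transgenic against control libraries was lost with limma-voom (-0.26), library totals alone (-0.29), no filter (-0.30), no sex term (-0.26) and without the class II set (-0.29) or the interferon high libraries (-0.31); the Bax call was lost in 9 settings beside leave-one-out, with log2 fold changes of 0.15 to 0.20. Signs turned in values that were not called. For Bcl2l1 in knockout-labelled against control libraries these were -0.0196 with DESeq2, -0.0191 with RLE size factors, -0.0189 with the stricter filter, -0.0221 with only the groups compared, -0.0218 without the interferon high libraries, -0.00447 with no filter, -0.0603 with the replicate block, and -0.0682 to 0.0980 with single libraries left out. Bcl2 in the same comparison was -0.0466 in males only and -0.00902 to 0.132 with single libraries left out. Bcl2a1d was 0.0227 with no sex term and -0.24 to 0.19 with single libraries left out, and Bcl2a1b was -0.59 to 0.12. The Bcl2a1 sum was 0.0151 with no sex term, 0.0388 without the interferon high libraries and -0.32 to 0.11 with single libraries left out. In transgenic against control libraries the sum was -0.0109 in males only, and Bcl2a1b 0.11 with the replicate block. In transgenic against knockout-labelled libraries Mcl1 was 0.0126 with no sex term, and Bcl2a1b was 0.35 with limma-voom, 0.22 in males only, 0.11 with the replicate block, 0.91 without the class II set and -0.44 to 0.29 with single libraries left out. Scaling moved the median log2 fold change of all genes to -0.00373 with DESeq2, against 0.0301, in transgenic against control libraries. The calls of the pathway lists were not run under alternatives. Bcl2a1a and Bok, with up to 9.13 and 4 counts in a library, were too low for the filter and were not tested.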
